A study of Mus musculus with 8 samples.

Results

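Tandem clusters are sites of Ptbp2 crosslinking that sit next to another such site on the same strand of the RNA. Tags of all libraries were pooled, tags that overlapped by 1 nt or more on a strand were joined into a cluster, and the height of a cluster was the largest number of tags over a single base. A cluster was taken as tandem when its height was 10 or more, it lay on chromosomes 1 to 19, and its edge lay 200 nt or less from the edge of another such cluster on the same strand. Long runs of 10 or more clusters linked by gaps of 20 kb or less, and a short, very dense stretch of chromosome 17, were left out. The rule kept 1353 of the 22803 clusters of height 10 or more. Before runs were left out, 2542 clusters had such a neighbour, and 1189 of them lay in runs, including all 13 of the chromosome 17 stretch. The kept clusters formed 736 neighbouring pairs in 617 chains. The clusters were thus chosen by their pooled height and spacing, and both are described here without a test.

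The tissue was embryonic cortex, taken at day 18.5 from wild-type mice of the CD1 strain. RNA crosslinked to Ptbp2 was sequenced in 4 libraries from each of 2 brains, called brain 1 and brain 2. The libraries of a brain share an animal, so tests over libraries measure the spread between libraries. The titles also give libraries 1 and 2 of a brain the letter a and libraries 3 and 4 the letter b, without saying what the letters mean. Libraries of a letter may not be independent, and p-values and SDs that count 4 or 8 libraries may then be too small. Every group is wild type with no other genotype, antibody or input RNA analysed here. Tags per library ran from 228424 (brain 2, library 4) to 545387 (brain 1, library 1), with 1932995 in brain 1 and 1165859 in brain 2. Tag numbers follow both how often Ptbp2 touched a site and how much of the transcript was present, and these cannot be told apart without input RNA. Positions are those of the mouse build mm9, counted from 1, and carry no gene annotation because no annotation of that build was used here. For the same reason the labelled tissue was not checked against marker genes.

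Ptbp2 is the neuronal relative of the polypyrimidine tract binding protein Ptbp1. It carries several RNA recognition motifs, each able to hold a short stretch of pyrimidines, and it is best known for repressing exons during neuronal differentiation. Regulated exons of this family often have several pyrimidine-rich stretches near each other. HITS-CLIP fixes protein to RNA under ultraviolet light and sequences the fragments that are pulled down with the protein, so each tag marks a fragment that the protein touched.

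The neighbours lay close together. The gap between the edges of neighbouring clusters, counted as the uncovered bases between them, had a median of 55.0 nt with quartiles of 14.0 and 112.25 nt. Gaps of 0 to 9 nt were found in 150 of 736 pairs (20.4%), and gaps of 0 to 19 nt in 232 pairs (31.5%). In 14 pairs the gap was 0, so that the last base of a cluster was followed directly by the first base of the next with no tag spanning the junction. Measured between the highest points, neighbours were a median of 117 nt apart, with a range of 31 to 356 nt. Beyond the first 3 classes of 10 nt, the number of pairs per class stayed between 11 and 46 up to the limit of the rule.

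**Figure D1:**
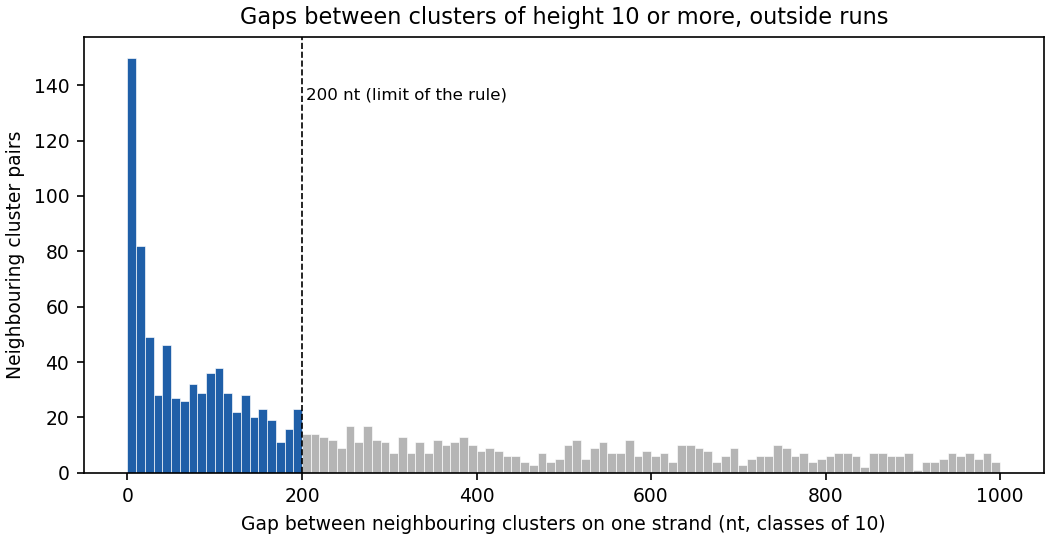
Number of neighbouring cluster pairs (vertical axis) by the gap between them on a strand (horizontal axis, nt, classes of 10), for clusters of height 10 or more outside runs; blue classes lie below the 200-nt limit of the rule (dashed line), and grey ones start at it. The first class holds 150 pairs and the second 82, and the classes on either side of the limit hold 23 and 14, of which 2 have a gap of exactly 200 nt and belong to the tandem pairs.

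Neighbouring clusters were also found beyond the limit of 200 nt. Outside runs, 23 gaps measured 191 to 200 nt and 15 measured 201 to 210 nt, and there were 230 gaps of 201 to 400 nt, 146 of 401 to 600 nt and 136 of 601 to 800 nt. The median ratio of the taller to the shorter neighbour was 1.33 for the 23 gaps just inside and 1.68 for the 15 just outside. At the height limit, 207 tandem clusters had a height of exactly 10 and 297 clusters of height 9 lay as near to another cluster of height 9 or more.

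Many gaps held no tag at all. In 465 pairs (63.2%) 0 tags lay between the clusters. A tag of 27 to 30 nt cannot fit into a shorter gap without joining the clusters, so the 455 gaps of 30 nt or more are the informative ones. Of these, 184 (40.4%, exact 95% Clopper-Pearson interval 35.9 to 45.1%) held 0 tags, the median was 1 tag and the highest number was 14. Intervals in this text cover counting error only.

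The tandem clusters were slightly wider and taller than solitary ones, the 16376 clusters of the same chromosomes with no same-strand neighbour within 200 nt and outside runs. Their median width was 50 nt (27 to 289) against 40 nt, and their median height 15 (10 to 947) against 14. A height of 100 was reached by 31 tandem clusters (2.29%) and 126 solitary ones (0.769%). The position shared by most tags of a cluster, the same start and end, held a median of 38.5% of its tags in tandem and 41.7% in solitary clusters. The tandem clusters held 37386 tags, 1.21% of all tags, and 14.8% of these lay in the 10 clusters with most tags. Height and width enter the rule or follow from it, so these values are a description.

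Neither the 5′ nor the 3′ neighbour was taller as a rule. In the direction of the strand, the 5′ neighbour was the taller in 350 pairs and the 3′ neighbour in 334, with 52 ties, which is 51.2% for the 5′ side among decided pairs (95% interval 47.4 to 55.0%). Within libraries the 5′ neighbour had more tags in 50.9%, 51.5%, 51.7% and 51.4% of decided pairs in libraries 1 to 4 of brain 1. In libraries 1 to 4 of brain 2 the shares were 50.7%, 50.1%, 48.6% and 53.2%. Brain 2 spread more widely on both sides of brain 1. The means were 51.4 ± 0.31% and 50.7 ± 1.92% (SD, n = 4 libraries each), and the two-sided exact permutation test gave p = 0.543, where 0.0286 is the smallest p that 4 against 4 libraries allow. The difference of -0.71 percentage points turned to 0.36 without library 4 of brain 1 and to 0.52 without library 2 of brain 2.

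The order did not follow the gap in a steady way. The 5′ neighbour was taller in 51.4% of decided pairs with gaps of 0 to 9 nt, 59.0% at 10 to 19 nt, 43.5% at 20 to 49 nt, 47.4% at 50 to 99 nt, 59.8% at 100 to 149 nt and 47.0% at 150 to 200 nt. The class of 100 to 149 nt was the only one of these 6 whose 95% interval (50.8 to 68.4%) lay above 50%, and none lay below it. Among the 223 pairs that differed by 2-fold or more, the 5′ neighbour was taller in 48.9%.

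Neighbours were mostly of like height, with a thin tail of very unequal pairs. The taller neighbour was a median of 1.5 times as tall as the shorter (quartiles 1.20 and 2.20). A ratio of 2 or more was found in 223 pairs (30.3%), of 5 or more in 35 and of 10 or more in 16. Because each member had to reach a height of 10, a large ratio needs a tall partner, and most clusters are near the limit. Pairs with gaps of 10 to 19 nt had the largest median ratio of the 6 gap classes, 1.72, and 46.3% of them had a ratio of 2 or more, against 23.4% at 150 to 200 nt. As a group, taller neighbours had a median width of 53 nt (quartiles 41 and 73) and shorter ones 49 nt (quartiles 40 and 68). Widths were not compared within pairs.

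The most unequal pair was on the plus strand of chromosome 6. Its 5′ cluster (47731624 to 47731654, height 24) drew 6, 5, 4 and 3 tags in libraries 1 to 4 of brain 1 and 3, 1, 2 and 0 in those of brain 2. Its 3′ cluster, 4 nt further on (47731659 to 47731724, height 947, the tallest tandem cluster), drew 167, 127, 142 and 148 tags in brain 1 and 74, 100, 109 and 82 in brain 2. The 3′ cluster was the higher in all 8 libraries, and the counts of the clusters did not overlap. The ratio of heights was 39.5. The small cluster was a stack, with 91.7% of its 24 tags at a single position, and the large one had 55.5% of 949 tags at its fullest of 47 positions. Scaled to library depth (CPM, the usual tag rate relative to the library total), the brain 1 libraries averaged 302 ± 16.9 in the large cluster, and the brain 2 libraries averaged 315 ± 34.4 (SD, n = 4).

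On the minus strand of chromosome 10, a tall cluster (82418010 to 82418113, height 505) had a low one on either side. It drew 121, 106, 139 and 168 tags in libraries 1 to 4 of brain 1 and 88, 107, 101 and 100 in brain 2. The 5′ neighbour, 15 nt away (82418129 to 82418177, height 31), drew 3, 5, 5 and 4 tags in brain 1 and 3, 2, 5 and 4 in brain 2. The 3′ neighbour, 7 nt away (82417966 to 82418002, height 14), drew 0, 1, 3 and 2 tags in brain 1 and 1, 2, 3 and 2 in brain 2. The middle cluster was above both flanking clusters in each library, and it was 16.3 and 36.1 times as tall as them. The latter was the largest ratio among pairs with the 5′ neighbour taller.

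The minus strand of chromosome 7 placed a broad tall cluster downstream of a low one. The 5′ cluster (25763426 to 25763523, height 27) drew 2, 2, 6 and 4 tags in brain 1 and 6, 1, 4 and 7 in brain 2. The 3′ cluster (25763217 to 25763416, height 518), 9 nt away and 200 nt wide, drew 85, 73, 74 and 77 tags in brain 1 and 68, 57, 75 and 68 in brain 2. No library had fewer tags in the 3′ than in the 5′ cluster. Its tags were spread over 72 positions, of which the fullest held 23.7%. At a larger gap of 109 nt on the minus strand of chromosome 16, the 5′ cluster (67283803 to 67283895, height 329) drew 73, 52, 46 and 46 tags in brain 1 and 26, 31, 36 and 24 in brain 2. Its 3′ neighbour (67283626 to 67283693, height 13) drew 4, 1, 3 and 2 tags in brain 1 and 2, 0, 0 and 2 in brain 2. The 5′ cluster of this pair was the higher in all 8 libraries.

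A more even pair lay on the minus strand of chromosome 4. The 5′ cluster (148554376 to 148554653, height 162) drew 35, 40, 32 and 37 tags in brain 1 and 17, 25, 27 and 16 in brain 2. The 3′ cluster, 42 nt on (148554111 to 148554333, height 190), drew 69, 51, 32 and 40 tags in brain 1 and 32, 29, 41 and 42 in brain 2. The counts tied in library 3 of brain 1 and the 3′ cluster was higher in the other 7 libraries. In CPM the 5′ cluster held 74.96 ± 10.2 in brain 1 and 72.2 ± 6.89 in brain 2, and the 3′ cluster 98.1 ± 25.6 and 128 ± 40.2 (SD, n = 4). On the minus strand of chromosome 5 the 3′ cluster (136386352 to 136386401, height 372) was 4.59 times as tall as its 5′ neighbour (136386418 to 136386527, height 81), 16 nt away. The 3′ cluster of that pair averaged 112 ± 8.0 CPM in brain 1 and 133 ± 29.6 in brain 2, and the 5′ one 30.5 ± 12.3 and 34.3 ± 16.3.

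**Figure D2:**
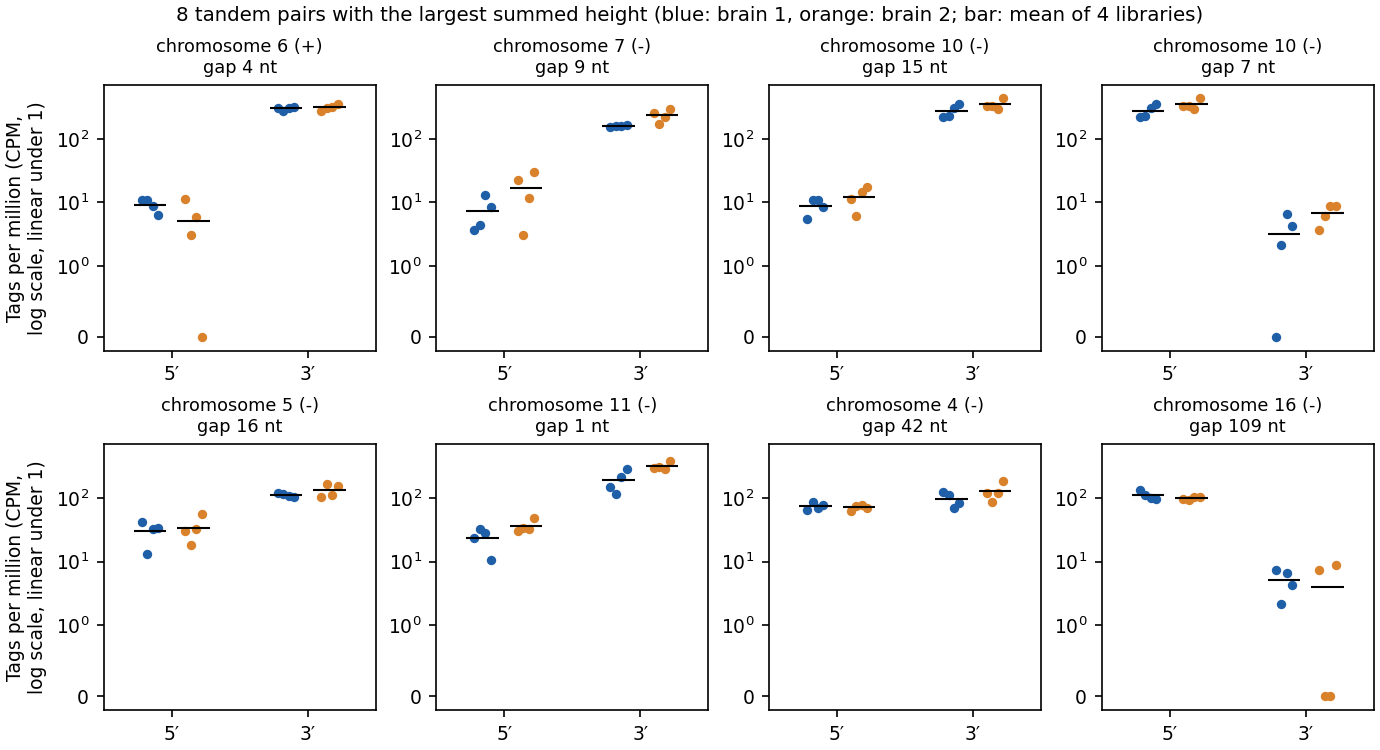
Tags of each library scaled to its depth (CPM, vertical axis, logarithmic above 1 and linear below) in the 5′ and 3′ neighbour of the 8 tandem pairs with the largest summed height; blue points are brain 1 libraries, orange points brain 2 libraries, and bars are means of 4 libraries. In 7 pairs the points of both neighbours stay apart in each library, and in the chromosome 4 pair they come close; the 2 chromosome 10 panels share their tall cluster.

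The closest spacing among the tall pairs was found in a chain on the minus strand of chromosome 11. Its clusters from 5′ to 3′ had heights of 19, 251, 81 and 308, with gaps of 24, 0 and 1 nt. The second cluster (108873266 to 108873360) drew 42, 30, 46 and 47 tags in brain 1 and 31, 34, 44 and 31 in brain 2. The third (108873186 to 108873265) drew 13, 15, 13 and 5 tags in brain 1 and 8, 11, 11 and 11 in brain 2. The fourth (108872961 to 108873184) drew 81, 53, 99 and 135 tags in brain 1 and 78, 100, 96 and 87 in brain 2. The low cluster between them was below both in all 8 libraries. It was a stack with 80.5% of its 87 tags at a single position, whereas the fourth spread 729 tags over 96 positions. Another pair with a gap of 0, on the plus strand of chromosome 2, was nearly level, with heights of 41 (156547504 to 156547597) and 43 (156547598 to 156547796).

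Tall pairs near the upper limit of spacing were also found. On the plus strand of chromosome 3, 189 uncovered bases with 0 tags separated a 5′ cluster (5860340 to 5860403, height 74) from a 3′ cluster (5860593 to 5860828, height 136). The 5′ cluster drew 14, 9, 11 and 12 tags in brain 1 and 8, 5, 11 and 8 in brain 2, and the 3′ cluster 53, 54, 48 and 52 in brain 1 and 33, 46, 62 and 56 in brain 2. The 3′ cluster was the higher in all 8 libraries. On the minus strand of chromosome 12 the gap was 195 nt and held 10 tags, and the heights were 11 (73313411 to 73313496) and 145 (73313128 to 73313215). On the plus strand of chromosome 2 the gap was 185 nt with 1 tag, and the heights were 56 (29856428 to 29856531) and 18 (29856717 to 29856795).

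Most chains were no longer than a pair. Of 617 chains, 528 (85.6%) held 2 clusters, 67 held 3, 17 held 4, 3 held 5, and 1 each held 6 and 7. The chains spanned a median of 193 nt (67 to 991). In the 89 chains of 3 or more clusters, the tallest was the first in 28, the last in 22, an inner one in 37 and tied in 2. An inner cluster was thus the tallest in 41.6% of these chains, and 40.1% of the clusters in them were inner ones.

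The longest chain lay on the plus strand of chromosome 7 (89919569 to 89920559), with 7 clusters and 1077 tags over 991 nt. From 5′ to 3′ the heights were 21, 144, 62, 57, 120, 47 and 242. The last cluster (89920271 to 89920559, 289 nt wide, the widest tandem cluster) drew 108, 52, 79 and 86 tags in brain 1 and 38, 41, 60 and 43 in brain 2. It held 56.2%, 41.9%, 47.9% and 51.2% of the chain's tags in brain 1 and 47.5%, 37.3%, 44.4% and 41.7% in brain 2, and was the fullest of the 7 in all 8 libraries. The fullest position of this broad cluster held 5.92% of its 507 tags, the lowest share of any tandem cluster. By contrast, the second cluster (89919738 to 89919779) packed 144 tags into 42 nt.

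The next chain, on the plus strand of chromosome 6 (3150767 to 3151635), held 6 clusters with heights of 10, 186, 10, 36, 58 and 33. Its second cluster (3150974 to 3151011), 38 nt wide, drew 17, 20, 29 and 35 tags in brain 1 and 25, 27, 18 and 15 in brain 2. This was between 41.5% and 50% of the chain's tags in brain 1 and between 45.0% and 49.1% in brain 2, a narrow range over the 8 libraries. The clusters on either side of it, both of height 10, gave the pairs that had the next largest ratio each way after those above, 18.6. The third chain, on the minus strand of chromosome 4 (148554062 to 148554842), held the even pair described above in its middle, with heights of 14, 62, 162, 190 and 15 from 5′ to 3′. Heights in this chain increased up to the fourth cluster, and the last was low.

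**Figure D3:**
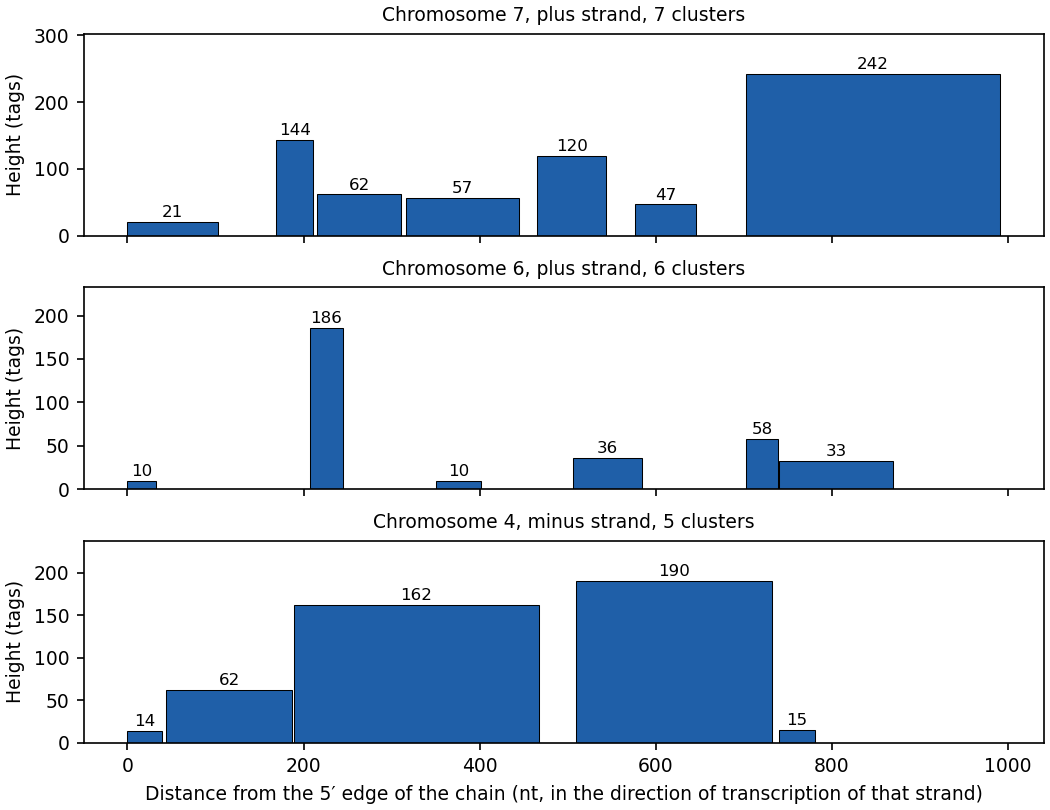
Clusters of the 3 chains with most tandem clusters, drawn to scale along the strand (horizontal axis, nt from the 5′ edge of the chain) with the height of each in tags (vertical axis); the number above each block is its height. The tallest cluster is the last in the chromosome 7 chain (242), the second in the chromosome 6 chain (186) and the fourth in the chromosome 4 chain (190).

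The brains were then compared to ask whether the order of neighbours recurred from animal to animal. Of 644 pairs in which each brain had a taller neighbour by its own tags, 425 (66.0%, 95% interval 62.2 to 69.6%) had the same one in both. The share was higher at larger imbalance in brain 1, from 126 of 222 pairs (56.8%) with a ratio under 1.5, through 86 of 140 (61.4%) at 1.5 to under 2 and 137 of 198 (69.2%) at 2 to under 4, to 76 of 84 (90.5%) at 4 or more. Graded by brain 2 instead, 260 of 369 pairs (70.5%) at 2 or more and 115 of 151 (76.2%) at 4 or more kept their order. Most pairs hold few tags, with 668 of the 736 under 100 in all. Which neighbour is taller in each brain was not used to choose the pairs. Their pooled height was, and it sums the tags of both brains, so these shares are not free of the rule. The share with the same taller neighbour was 54.2% at a height limit of 5 and 71.9% at 20.

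Among the 68 pairs with 100 or more tags, 61 (89.7%, 79.9 to 95.8%) had the same taller neighbour in both brains, and 46 (67.6%) had it in all 8 libraries. The balance of a pair, log2 of 5′ tags over 3′ tags with 0.5 added to each, had a Pearson r of 0.95 and a Spearman rho of 0.94 between brains over these 68 pairs, against 0.56 and 0.45 over all 736. Pairs of a chain share clusters, so these correlations describe the pairs and carry no p. Of the 68, 12 differed by more than 1 on the log2 scale between brains. Single libraries ordered 63.8 ± 0.62% of pairs as the other brain did in brain 1 and 63.7 ± 1.79% in brain 2 (SD, n = 4).

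**Figure D4:**
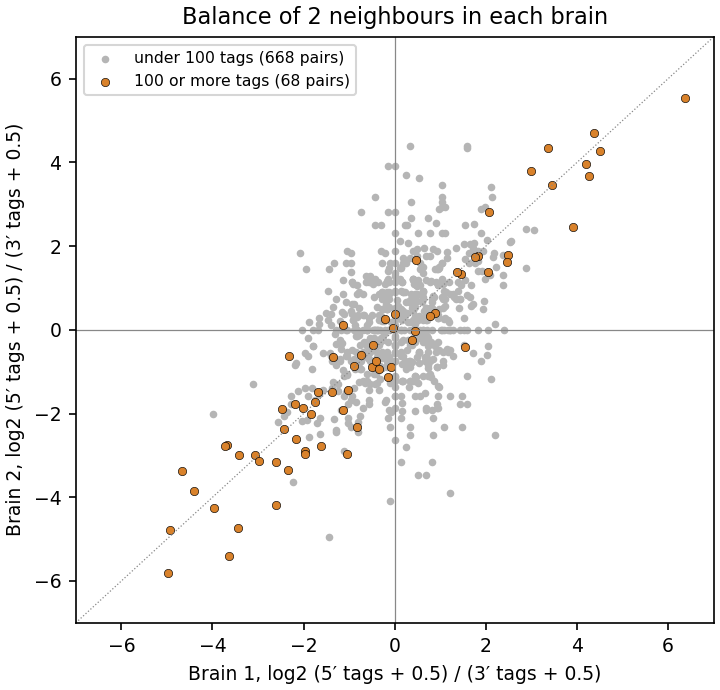
Balance of the neighbours in brain 1 (horizontal axis) and brain 2 (vertical axis), as log2 of 5′ over 3′ tags with 0.5 added to each, for 736 tandem pairs; orange points are the 68 pairs with 100 or more tags, grey points the 668 with fewer, and the dotted line marks equal balance. The orange points lie along the line (r = 0.95), and the grey ones form a broad cloud around 0.

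Both clusters of a pair were seen more often in the deeper brain. Both neighbours reached a height of 3 in brain 1 alone in 730 pairs and in brain 2 alone in 570, and in each brain in 565 (76.8%). At a height of 5 the numbers were 671, 317 and 281 (38.2%). Both neighbours had tags in 83.1 ± 4.804% of pairs in a library of brain 1 and 54.0 ± 8.10% in brain 2 (SD, n = 4).

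The share of tags in tandem clusters did not differ between brains beyond the spread of libraries. It was 1.21%, 1.17%, 1.23% and 1.21% in libraries 1 to 4 of brain 1, and 1.11%, 1.12%, 1.23% and 1.44% in those of brain 2. Brain 2 spanned the whole range of brain 1 and its library 4 stood highest. The means were 1.20 ± 0.025% and 1.22 ± 0.153% (SD, n = 4; two-sided exact permutation p = 0.914). With clusters called again without library 4 of brain 2, the difference turned from 0.0183 to -0.0522 percentage points. The clusters were chosen by height in the pooled tags of these libraries, of which brain 1 gave more. The test is thus not free of the rule and does not show that the shares were alike. Solitary clusters came from the same pool, and their share of tags averaged 10.07% in brain 1 and 11.28% in brain 2. Libraries of the brains did not overlap there (two-sided exact permutation p = 0.0286).

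No tandem cluster passed the test between brains. With limma (voom) on all 466 clusters that had enough tags, 6 (1.29%) had a Benjamini-Hochberg adjusted p under 0.05, and 0 of the 63 tandem clusters among them did. The other 1290 tandem clusters did not pass the count filter. With a filter of 15 tags in all and no other, 790 tandem clusters were tested and 0 passed, beside 6 of all 11355 clusters. The median log2 difference over all clusters was -0.19 in that fit. The values that follow are from the first fit. At an unadjusted p under 0.05 there were 14 tandem clusters of 63 (22.2%), beside 19.3% of all tested. In CPM, which uses library totals and not the trimmed-mean scaling of the fit, libraries of the brains did not overlap in 7 of 63 (11.1%), beside 12.2% of all. All 7 were higher in brain 2. The median log2 difference, brain 2 minus brain 1, was -0.01 for the 63 and 0.02 for all 466. With scaling by total tags the threshold was passed by 2 of 63 tandem clusters, beside 15 of all 466. Without library 3 of brain 1, 2 of 50 passed, beside 9 of all 418. Without library 4 of brain 1, 1 of 55 passed, beside 9 of all 429. With positions counted once per library, 2 of 20 tandem clusters passed, beside 4 of all 72. The last 2 were the 3′ cluster of the chromosome 3 pair (5860593 to 5860828; adjusted limma p 0.00511, against 0.123 with all tags) and the second cluster of the chromosome 11 chain (108873266 to 108873360; 0.0407, against 0.268).

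The nearest to the threshold was on the plus strand of chromosome 16 (17222480 to 17222514, height 200). It drew 24, 15, 32 and 24 tags in brain 1 and 22, 31, 29 and 23 in brain 2. Scaled to depth, brain 1 averaged 49.4 ± 15.5 CPM and brain 2 averaged 90.6 ± 8.45 (SD, n = 4 libraries each), with no overlap between the brains. The limma log2 difference was 0.74 ± 0.21 (SE), with an adjusted p of 0.0591, so it was not called. It passed with scaling by total tags (adjusted limma p 0.0182) and without library 3 of brain 1 (0.0159). Without library 2 of brain 1 its log2 difference fell to 0.53 (adjusted limma p 0.178), and without library 2 of brain 2 its adjusted limma p was 0.198. The tallest cluster of the chromosome 11 chain (108872961 to 108873184) held 192 ± 76.1 CPM in brain 1 and 314 ± 45.2 in brain 2 and had an adjusted limma p of 0.0819. Its log2 difference of 0.61 became 0.36 without library 2 of brain 1 (adjusted limma p 0.193). It passed with scaling by total tags (0.0323), without library 3 of brain 1 (0.0379) and without library 4 of brain 1 (0.00275, at a log2 difference of 0.80).

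The balance within pairs, in which library depth cancels, gave no call either. Transcript level cancels too where both neighbours lie on the same RNA, which was not tested. Of 568 neighbouring pairs with enough tags, runs included, 0 (0%) passed limma's test at an adjusted p under 0.05, and 45 (7.92%) had an unadjusted p under 0.05. Of the 244 tandem pairs among them, 17 (6.97%) had an unadjusted p under 0.05 and 9 (3.69%) did not overlap between brains, beside 5.46% of all. The smallest adjusted p of a tandem pair was 0.409. Without library 4 of brain 1, 1 of 141 tandem pairs passed, beside 1 of all 339 pairs tested. With few tags per library the absence of calls does not show that balances were alike in the brains.

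The pairs with the smallest p each way are given as values. On the plus strand of chromosome 16, the cluster starting at 11144280 drew 16, 11, 12 and 14 tags in brain 1 and 6, 5, 7 and 6 in brain 2. Its 3′ neighbour at 11144382 drew 3, 4, 1 and 10 tags in brain 1 and 5, 11, 10 and 6 in brain 2. Its 5′ neighbour at 11144127 drew 17, 11, 20 and 25 tags in brain 1 and 13, 21, 24 and 19 in brain 2. Scaled to depth, the middle cluster averaged 27.3 ± 2.75 CPM in brain 1 and 21.1 ± 4.61 in brain 2, while the 5′ neighbour averaged 38.0 ± 13.0 and 66.5 ± 14.4 (SD, n = 4). The log2 balance differed by -1.69 ± 0.50 (SE) for the middle over the 3′ cluster and by 1.15 ± 0.38 for the 5′ over the middle cluster, both with an adjusted limma p of 0.409. These pairs share the middle cluster. The others were on the minus strand of chromosome 17 (5′ cluster at 90537323, 3′ at 90537153; 1.18 ± 0.40) and on the plus strand of chromosome 14 (55677614 and 55677880; -2.33 ± 0.80), neither of them called.

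Tags in tandem clusters were longer than tags in solitary ones. Tags in the deposited list are 27 to 30 nt long, and length does not enter the rule other than through overlap. The share of 30-nt tags in tandem clusters was 56.7%, 56.6%, 59.7% and 60.7% in libraries 1 to 4 of brain 1 and 54.9%, 59.0%, 59.5% and 59.4% in brain 2. In solitary clusters it was 46.3%, 44.4%, 47.4% and 48.1% in brain 1 and 43.2%, 44.5%, 46.1% and 46.5% in brain 2. No library of either kind overlapped the other. The difference was 12.5 ± 1.20 percentage points (SD, n = 8), higher in 8 of 8 libraries. The two-sided exact paired permutation p was 0.00781, the smallest that 8 libraries can give. Every library is counted over the same clusters, so this p measures the spread between libraries and not the spread over clusters. Without clusters of height 100 or more, a comparison added after the data were seen, the shares were 54.9% and 45.2%. That difference was 9.70 ± 0.99 points (SD), also higher in 8 libraries. Tags outside clusters of height 10 or more had 41.7% of 30 nt, and the mean length was 29.07 nt in tandem and 28.81 nt in solitary clusters. The difference was 12.2 ± 1.60 points for clusters under 50 nt wide and 5.03 ± 0.83 points for those of 50 nt or more (690 tandem and 3989 solitary), higher in 8 of 8 libraries in both, a split made after the data were seen.

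This difference depended on what surrounded the cluster, a split made after the data were seen. Tags between 1 and 10 kb from a cluster were denser around tandem clusters, with a median of 3.5 per kb against 1.11. Where they were sparser than 1 per kb, 30-nt tags made up 66.5 ± 2.35% in 164 tandem clusters and 38.7 ± 1.58% in 7666 solitary ones (SD, n = 8 libraries). At 1 to under 3 per kb the shares were 59.99 ± 2.91% and 51.6 ± 1.96%. At 3 to under 10 per kb, where 775 tandem clusters lie, they were 53.3 ± 1.92% and 53.9 ± 1.28%, higher in tandem in 2 of 8 libraries (exact paired permutation p = 0.102). Inside the runs that the rule leaves out, clusters with and without a neighbour within 200 nt had 53.5% and 53.9% (p = 0.422, same exact test). At 10 or more per kb, in 22 tandem and 45 solitary clusters, the shares were 56.3 ± 7.92% and 55.5 ± 4.24%. They were higher in tandem in 6 of 8 libraries there (exact paired permutation p = 0.836). With clusters of every height, the difference was 28.4 ± 1.71 percentage points larger in sparse surroundings than at 3 to under 10 per kb (SD, n = 8). Sparse here means fewer than 1 per kb, and this held in 8 of 8 libraries (exact paired permutation p = 0.00781). The libraries share their clusters in each class, so the p-values by surroundings do not measure the spread over clusters either. In sparse surroundings the difference between tandem and solitary clusters was smaller without clusters of height 100 or more, at 56.3% against 38.6%. The medians per cluster there were 58.4% and 38.1%.

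**Figure D5:**
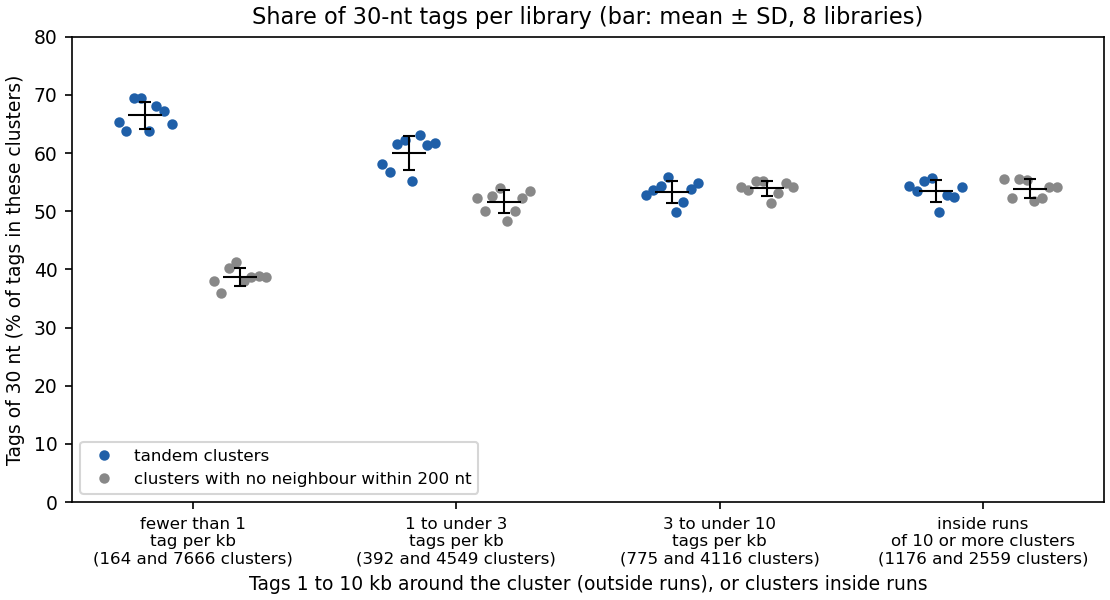
Share of tags that are 30 nt long (vertical axis, percent) in tandem clusters (blue) and in clusters without a neighbour within 200 nt (grey), by the number of tags 1 to 10 kb around the cluster or for clusters inside runs (horizontal axis); points are the 8 libraries and bars the mean ± SD. The groups lie far apart where fewer than 1 tag per kb surrounds them (66.5% and 38.7%) and on top of each other at 3 to under 10 tags per kb and inside runs. The class of 10 or more tags per kb (22 tandem and 45 solitary clusters) is not drawn.

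The strand of the tags also differed, with the surroundings moving with it. Plus-strand tags made up 43.9 ± 1.01% of tags in tandem clusters and 36.1 ± 1.13% in solitary ones (SD, n = 8), a comparison added after the data were seen. The share was higher in tandem clusters in 8 of 8 libraries (exact paired permutation p = 0.00781). Every library is counted over the same clusters, each on a fixed strand, so the libraries largely repeat a single split. That p does not measure the spread over clusters. By clusters, 618 of 1353 tandem (45.7%) and 38.6% of solitary ones were on the plus strand. By surroundings only shares of tags are given, in which the fullest clusters count most. Plus-strand tags made up 51.4% against 33.4% below 1 surrounding tag per kb and 46.4% against 33.5% at 1 to under 3. At 10 or more, in 22 tandem and 45 solitary clusters, they made up 50.2% against 36.3%. At 3 to under 10 tags per kb the direction turned, to 38.8% against 45.2%, as it did inside runs, to 34.0% against 39.2%. The part of gene orientation in this was not tested.

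Likeness of neighbours in these properties was low over all pairs, where most clusters hold few tags, and higher over the fuller ones. The share of 30-nt tags had a Pearson r of 0.10 between 5′ and 3′ neighbours over 736 pairs and 0.43 over the 68 pairs with 100 or more tags, as a description over pairs that share libraries and, in chains, clusters. The log2 ratio of brain 2 to brain 1 had r = 0.07 over all pairs and 0.22 over those 68. The 3′ neighbours had slightly more 30-nt tags, 59.9 ± 2.37% against 58.6 ± 2.00% (SD, n = 8), higher in 7 of 8 libraries (exact paired permutation p = 0.0156, compared after the data were seen). These are shares of tags, so the fullest clusters count most, and 10 clusters hold 14.8% of tandem tags. Inner clusters of chains count on both sides. Whether single 3′ clusters differed from their 5′ neighbours was not tested. Tags that repeated a position already counted in their library made up 38.0% in tandem and 34.6% in solitary clusters. The shares were 29.8% in both once clusters of height 100 or more were left out. Height counts such tags, so this is a description.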

How the data were processed

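The deposited file is a list with 1 row per mapped tag, giving chromosome, start, end and strand (unit: other), with the library in the tag name. Its score column is 0 in every row and was not used. Per the submitters' processing notes, reads were mapped with Bowtie (version not given in the sources used here) to mm8 and mm9. Tags on chromosome 1 run to position 197194446, past that chromosome's end in mm8, so mm9 is used. Per the labels' protocols reads began with 4 degenerate bases, and the handling of repeated and multiply mapped reads is not stated in those sources, so heights count repeated positions.

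Tags were pooled, clustered and counted per library with Python 3.11.15. Limma 3.58.1 (R 4.3.3) was run with voom on clusters with the CPM of 10 tags at median depth in 4 libraries and 15 tags in all, with trimmed-mean scaling. The balance test weighted log2((5′ tags + 0.5)/(3′ tags + 0.5)) by counting variance, for pairs with 40 tags in all and tags in both neighbours in 6 libraries. Scripts were tested on simulated data. Sites named were the 8 pairs of largest summed height, the 3 longest chains, extremes of gap and ratio (3 each way), and the balance pairs of smallest p (2 each way); clusters near the threshold between brains were picked after their values were seen. Members, lists and rules were chosen with earlier results of these data known. Same-numbered libraries of the brains did not deviate together and were not treated as pairs in the main tests. What the numbers stand for was not tested. Sequences, gene context and gene lists of these sites were planned and are not analysed here.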

Additional observations from a re-analysis of the deposited data

Results flagged for a closer look

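In 5 of 82 sets of 4 libraries a single library stood far from the rest by Dixon's test at its 95% level, at which about 1 set in 20 is expected by chance. The share of 30-nt tags in tandem clusters was 54.9% in library 1 of brain 2, below the others of that brain. The share of pairs ordered as in the other brain, for a ratio of 2 or more there, was 67.3% in library 2 of brain 1, against 70.1% to 70.4% in the other 3. The chromosome 2 plus-strand cluster at 29856428 held 17.04 CPM in library 4 of brain 1 (8 tags), and its 3′ neighbour at 29856717 held 18.2 CPM in library 2 of brain 2 (6 tags). The chromosome 12 minus-strand cluster at 73313411 held 3.67 CPM in library 1 of brain 1, where all 4 libraries of that brain had 2 tags and only their depths differed.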

How the results depend on the processing

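Members, spacing and order depended on the limits of the rule. With a height of 5 there were 4619 tandem clusters and 54.2% of pairs had the same taller neighbour in both brains; with a height of 20 there were 348, with a median gap of 41 nt, the 5′ neighbour fuller in 46.3% of pairs and the same taller neighbour in 71.9%. With positions counted once per library there were 901. The median gap was 24 nt at a limit of 100 nt and 102 nt at 500 nt. Leaving out each library gave 966 to 1215 clusters, median gaps of 50 to 57 nt, a 5′ share of 49.5% to 51.8% and the same taller neighbour in 62.8% to 68.5%. The difference in order between brains was 0.21 percentage points at 500 nt and -2.39 to 0.52 without each library (0.36 without library 4 of brain 1, 0.52 without library 2 of brain 2); that of the share of tags was -0.0522 to 0.0652, the former without library 4 of brain 2. The difference in 30-nt tags was 11.8 to 12.4 percentage points without each library, -0.63 at 3 to under 10 tags per kb, 0.76 at 10 or more tags per kb, -0.37 inside runs, and 8.26 with positions counted once per library. Tandem clusters past the threshold between brains numbered 2 with positions counted once, beside 4 of all 72 clusters tested. They numbered 2 when libraries were scaled by total tags, beside 15 of all 466 (median log2 difference of all clusters 0.16). Without each library they numbered 0 to 2, beside 3 to 9 of all clusters tested, and balance pairs numbered 0 to 1. Same-numbered libraries correlated between -0.05 and 0.00 in their deviations; with the replicate number as a block 0 clusters and 0 pairs passed, and the share of tags differed by 0.0183 percentage points (exact paired p = 1). The cause of these shifts was not tested. Depth limits the comparison of single clusters, of which 63 of 1353 passed the count filter and 790 the filter of 15 tags in all. Under either, 0 tandem clusters were called, beside 6 of all 466 clusters and 6 of all 11355.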

Other observations

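Tandem clusters had no neighbour on the other strand. Of 1353 tandem clusters, 0 had a cluster of height 10 or more on the opposite strand within 200 nt, which allows a share of up to 0.272% (exact 95% interval), and 12 of 16376 solitary clusters did (0.0733%). An opposite-strand tag overlapped or touched 12 tandem clusters (0.887%) and 283 solitary ones (1.73%).

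The share of clusters that were tandem varied over chromosomes. Outside runs it was 7.63% over all, from 5.51% on chromosome 1 (83 of 1505) to 12.2% on chromosome 19 (52 of 426, 95% interval 9.25 to 15.7%), with the next highest on chromosome 7 (9.45%, 100 of 1058). Clusters of a chain are counted together in these shares, so the intervals are too narrow.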
